A study of Mus musculus with 6 samples.

Results

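The genes described here are the 4 Egr transcription factors, *Egr1*, *Egr2*, *Egr3* and *Egr4*, and their 2 corepressors, *Nab1* and *Nab2*, in CD11b+ cells from mouse tumors. They are the 6 rows with these symbols among the 25701 genes of the count table, and all 6 passed the filter on low counts. The family was chosen by its difference between MCT2 KO and MCT2 CO in these same samples, in which *Egr4* had been seen to be lower in MCT2 KO. The differences between the groups given below for the 6 genes are therefore descriptions, without a test.

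Poly-A RNA was sequenced from 6 samples, 3 MCT2 CO and 3 MCT2 KO, to compare gene expression in tumor macrophages with and without a reduction of MCT2, the monocarboxylate transporter encoded by *Slc16a7*. All mice carried floxed MCT2 alleles together with a tamoxifen-inducible Cre transgene (MCT2loxP/loxP; Cre+) on a C57BL/6 background, were male and were 8 weeks old when treated. The MCT2 KO mice received tamoxifen and the MCT2 CO mice vehicle, so the loss of MCT2, tamoxifen itself and active Cre cannot be told apart, and the deletion was systemic rather than limited to macrophages. The authors also report larger tumors in MCT2 KO mice. Effects secondary to tumor size cannot be told apart here either. TC1 cells, a mouse lung epithelial tumor line, were grown under the skin of the flank for 24 days, the tumors were digested with warm collagenase, and CD11b+ cells were bound to magnetic beads. The labels name the tissue as lung and the cells as purified macrophages, and the replicates of a group are numbered without naming mice. The total counts ranged from 24863611 to 31713704 per sample. The targeted gene *Slc16a7* had 481, 287 and 298 counts in the MCT2 CO samples against 196, 162 and 133 in the MCT2 KO samples, a log2 fold change of -1.05 (SE 0.24), so its transcript was lower with MCT2 KO but not absent. Levels are given below as CPM, which are counts scaled to library size and normalized by the TMM method.

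The Egr proteins are zinc finger transcription factors that bind a GC-rich DNA site. Their genes are immediate early genes, which are transcribed within minutes of a stimulus, without new protein synthesis, when the Ras-ERK kinase cascade activates Elk1 and the serum response factor SRF at CArG boxes, or when CREB is activated at cAMP response elements. In the myeloid lineage *Egr1* and *Egr2* take part in macrophage differentiation, whereas *Egr2* and *Egr3* restrain the activation of T cells. The Nab proteins bind an inhibitory domain of Egr1, Egr2 and Egr3 and bring in the chromatin remodeling complex NuRD, and since *Nab2* can itself be induced by Egr proteins, the pair forms a negative feedback loop. Immediate early genes and heat shock genes are also known to be induced while tissue is enzymatically dissociated.

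Promoter sequences of 4 of the 6 genes were found in RefSeq on GRCm38.p6, as windows of 300 bases that run from 250 bases before the annotated start to 50 bases after it. *Egr2* had 5 such windows and *Egr4*, *Nab1* and *Nab2* had 1 each. The windows of *Egr2*, *Egr4* and *Nab1* shown here hold letter matches to the kinds of site through which the family is known to be switched on or to act. The *Egr2* window lies on the plus strand at chr10:67537619-67537918, the *Egr4* window on the minus strand at chr6:85513540-85513839 and the *Nab1* window on the minus strand at chr1:52500399-52500698. Each is written 5′ to 3′ along the gene. Capitals mark a CArG box, the short cAMP response element TGACG and the Egr site GCGNGGGCG, in which N stands for any base, each on either strand.
*Egr2*: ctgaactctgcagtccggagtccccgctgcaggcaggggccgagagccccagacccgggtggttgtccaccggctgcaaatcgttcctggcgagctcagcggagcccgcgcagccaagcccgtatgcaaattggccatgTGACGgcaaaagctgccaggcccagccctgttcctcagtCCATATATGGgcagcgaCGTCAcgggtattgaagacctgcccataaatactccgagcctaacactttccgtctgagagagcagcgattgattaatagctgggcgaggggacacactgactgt
*Egr4*: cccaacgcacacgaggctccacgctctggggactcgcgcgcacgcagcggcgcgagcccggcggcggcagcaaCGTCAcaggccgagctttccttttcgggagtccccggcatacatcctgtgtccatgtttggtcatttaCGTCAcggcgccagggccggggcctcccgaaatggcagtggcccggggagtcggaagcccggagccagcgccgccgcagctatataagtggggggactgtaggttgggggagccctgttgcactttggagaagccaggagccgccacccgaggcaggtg
*Nab1*: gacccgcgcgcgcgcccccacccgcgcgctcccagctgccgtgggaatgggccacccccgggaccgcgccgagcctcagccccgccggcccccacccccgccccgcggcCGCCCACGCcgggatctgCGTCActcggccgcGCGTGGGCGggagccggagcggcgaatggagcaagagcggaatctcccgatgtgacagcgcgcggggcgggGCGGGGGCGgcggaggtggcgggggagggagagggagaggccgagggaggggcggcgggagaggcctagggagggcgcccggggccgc

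With the first transcribed base counted as 1 and the base before it as -1, the *Egr2* window held a CArG box at position -72 between TGACG elements at -111 and -55. A CArG box stood in 4 of the 5 *Egr2* windows, of which 3 overlap almost wholly and hold the same box, so that these are 2 distinct boxes. One stood in 1.63% of all 32851 promoter windows of RefSeq. The remaining *Egr2* window, chr10:67535249-67535548, covers the outermost GENCODE start of *Egr2*, 67535475, and held none of the marked motifs. The *Egr2* window shown lies inside the GENCODE span of the gene. The *Egr4* window held TGACG at -177 and -109 and no CArG box. TGACG is short and stood in 20.8% of all windows. The *Nab1* window held the Egr site at -141, -109 and -38, the last of them in the form GCGGGGGCG, and TGACG at -123. The Egr site was present in 5.55% of all windows and the form GCGGGGGCG in 2.91%. None of these motifs was found in the *Nab2* window, chr10:127666654-127666953. That window lies inside the GENCODE span of *Nab2*, a minus-strand gene that ends at 127668568. The outermost annotated start of *Nab2* was therefore not searched. No 2 of the marked motifs overlapped in these windows, each position is that of the leftmost base of the match as printed, and both strands were searched. A match of letters shows neither binding nor its absence.

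Per length of exon, *Egr1* stood far above the rest of the family. Its level was lowest at 715, had a median of 785 and was highest at 1026 CPM per kb of exon over the 6 samples, which placed it 19th among all genes by mean level. *Egr1* alone took 0.332, 0.376 and 0.469% of all counts in MCT2 CO and 0.308, 0.382 and 0.323% in MCT2 KO, and was between the 2nd and the 10th most counted gene of each sample. *Nab1* followed at 32.9 to 37.6 CPM per kb (median 36.6), *Nab2* at 27.4 to 38.5 (median 34.9), *Egr2* at 24.3 to 46.3 (median 28.5), *Egr3* at 13.9 to 44.9 (median 22.0) and *Egr4* at 6.55 to 26.0 (median 15.3).

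On the log2 scale *Egr1* was above *Nab1*, the next in order, by 4.49 ± 0.27 (SD, n = 6), and their ranges did not overlap. The ranges of all other neighbors in this order overlapped. *Nab1* and *Nab2* were in this order in 4 of 6 samples, and *Nab2* and *Egr2* in 5 of 6. *Egr2* was nevertheless above *Egr3*, and *Egr3* above *Egr4*, in 6 of 6 samples. The order of *Nab1* and *Nab2* turned when the longest transcript was used as the length in place of all exons. When the whole span of each gene was used, *Egr3* came before *Egr2* and *Nab1*, whose span is 43386 bases, came last.

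**Figure D1:**
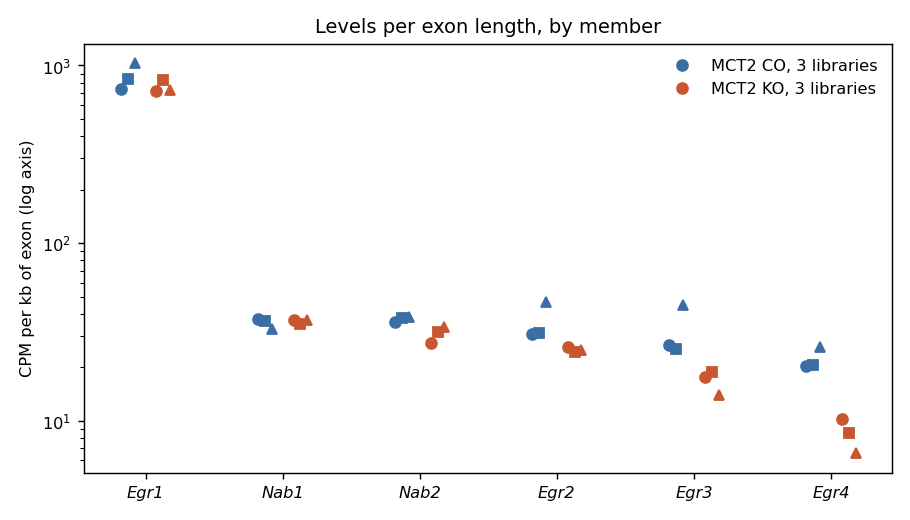
Level of each Egr and Nab gene in CPM per kb of merged exon, on a log axis, with one point per sample (blue MCT2 CO, orange MCT2 KO; circle, square and triangle are replicates 1 to 3). *Egr1* lies between 715 and 1026 in all 6 samples, whereas the other 5 genes lie between 6.55 and 46.3, and the points of MCT2 KO for *Egr4* all lie below those of MCT2 CO.

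*Egr4* was the member with the largest difference between the groups. It lies on the minus strand of chromosome 6 from 85511121 to 85513589 (GENCODE M21, GRCm38, as for all gene positions here; ENSMUSG00000071341), and it is best known for its expression in the nervous system and its part in male fertility. Its level was 43.5, 44.5 and 55.9 CPM in MCT2 CO replicates 1 to 3 and 22.0, 18.2 and 14.1 CPM in MCT2 KO replicates 1 to 3. The lowest MCT2 CO sample thus stood well above the highest MCT2 KO sample. The means were 48.0 ± 6.89 and 18.1 ± 3.98 CPM (SD, n = 3), and the fitted level was 2.65-fold higher in MCT2 CO. The log2 fold change of MCT2 KO against MCT2 CO was -1.41 (SE 0.17) in edgeR's quasi-likelihood fit, the 39th lowest of the 13485 genes tested. With each sample left out in turn it stayed between -1.57 and -1.25.

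*Egr3* (chromosome 14, plus strand, 70077203 to 70082614, ENSMUSG00000033730), which is needed for muscle spindles and limits T-cell activation, was also lower in every MCT2 KO sample. It had 118, 111 and 198 CPM in MCT2 CO and 78.0, 82.5 and 61.3 CPM in MCT2 KO. The groups did not overlap, although MCT2 CO replicate 3 stood far above the other MCT2 CO samples. The means were 142 ± 48.3 and 73.9 ± 11.2 CPM (SD, n = 3), 1.92-fold apart in the fit, and the log2 fold change was -0.94 (SE 0.23). It came to -0.63 without MCT2 CO replicate 3.

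*Egr2* (chromosome 10, plus strand, 67535475 to 67542188, ENSMUSG00000037868), a factor of hindbrain patterning and of myelination as well as of macrophages, showed the same arrangement with a smaller difference. Its level was 105, 105 and 157 CPM in MCT2 CO and 88.5, 82.6 and 84.9 CPM in MCT2 KO. The MCT2 KO samples lay close together and below all MCT2 CO samples, of which replicate 3 was again the highest. The means were 122.6 ± 30.1 and 85.4 ± 2.96 CPM (SD, n = 3), 1.44-fold apart in the fit. The log2 fold change was -0.52 (SE 0.16), and -0.30 without MCT2 CO replicate 3.

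*Egr1* (chromosome 18, plus strand, 34859823 to 34864984, ENSMUSG00000038418), the founding member of the family, overlapped between the groups. It had 3323, 3760 and 4602 CPM in MCT2 CO and 3208, 3720 and 3250 CPM in MCT2 KO. MCT2 KO replicate 2 lay above MCT2 CO replicate 1, and the highest value was again that of MCT2 CO replicate 3. The means were 3895 ± 650 and 3393 ± 284 CPM (SD, n = 3), and the fit gave a log2 fold change of -0.20 (SE 0.15). Without MCT2 CO replicate 3 it was -0.062, and without MCT2 CO replicate 1 it was -0.30.

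The corepressors differed from each other. *Nab2* (chromosome 10, minus strand, 127660918 to 127668568, ENSMUSG00000025402) had 106, 112 and 113 CPM in MCT2 CO and 80.6, 92.6 and 99.1 CPM in MCT2 KO, so its groups did not overlap. Its means were 110 ± 3.84 and 90.8 ± 9.39 CPM (SD, n = 3), 1.22-fold apart in the fit, with a log2 fold change of -0.28 (SE 0.094). *Nab2* is the only member that overlaps other genes, *Stat6* (log2 fold change 0.23, SE 0.13) and *1700012D01Rik* (-0.003, SE 0.12), whose spans hold 7.24% of its exon bases.

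*Nab1* (chromosome 1, minus strand, 52457294 to 52500679, ENSMUSG00000002881) had 154, 149 and 135 CPM in MCT2 CO and 152, 143 and 151 CPM in MCT2 KO. The groups overlapped, and its means of 146 ± 9.88 and 149 ± 5.14 CPM (SD, n = 3) differed by less than 1 SD. The log2 fold change was 0.026 (SE 0.083), and it became -0.028 without MCT2 CO replicate 3, which held the lowest *Nab1* value and the highest value of each of the other 5 genes.

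**Figure D2:**
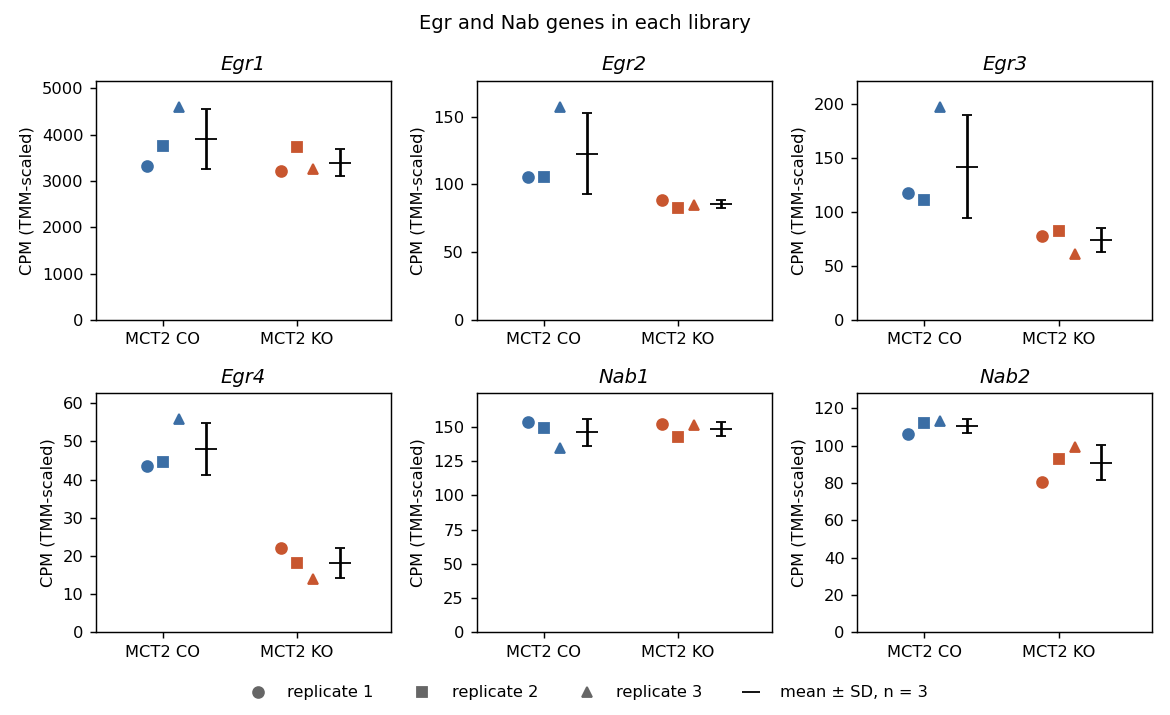
CPM of each Egr and Nab gene by group, with one point per sample (circle, square and triangle are replicates 1 to 3) and the mean ± SD of 3 samples as a black bar; each axis starts at 0. The MCT2 KO points lie below all MCT2 CO points for *Egr2*, *Egr3*, *Egr4* and *Nab2* and overlap them for *Egr1* and *Nab1*.

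In all, 4 of the 6 genes had every MCT2 KO sample below every MCT2 CO sample and none had the reverse, whereas among all 13485 genes tested 8.77% lay below in this way and 7.07% above. A gene was called where its adjusted p was 0.05 or less and its log2 fold change was 0.58 or more in either direction. By edgeR's quasi-likelihood test 0 of the 6 genes and 0.0% of all genes were called, and 1264 genes, 755 lower and 509 higher, had an unadjusted p under 0.05. DESeq2, run on every gene with a count, called 2 of the 6, *Egr3* and *Egr4*, both lower, beside 0.584% of 14202 genes called in either direction and 0.352% called lower. Since the members were selected on this contrast, nothing is read from their counts against these shares. The median log2 fold change of the 6 genes was -0.40, and that of all genes tested was 3.66e-04. In bulk RNA of this kind, fewer cells that express a gene and less of its RNA per cell cannot be told apart.

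**Figure D3:**
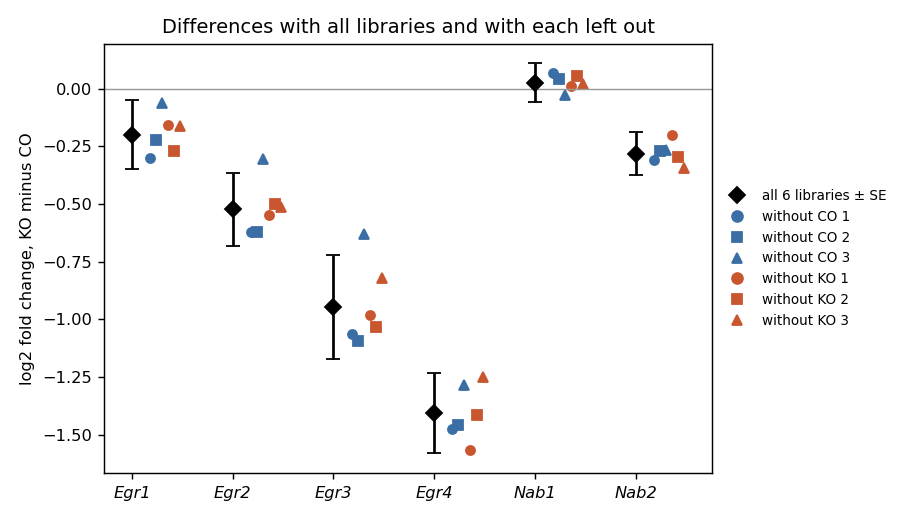
Log2 fold change of MCT2 KO against MCT2 CO for each gene with all 6 samples (black diamond, bar ± SE) and with each sample left out (colored points). *Egr4* stays between -1.57 and -1.25, whereas leaving out MCT2 CO replicate 3 (blue triangle) brings *Egr1* to -0.062, *Egr2* to -0.30 and *Egr3* to -0.63.

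Each gene was also set against *Egr1* in the same sample, which removes the scaling between samples. These ratios restate the values above, on which the family was chosen, and are not a separate result. Per kb of exon, the *Egr4* level was 2.73, 2.47 and 2.54% of the *Egr1* level in MCT2 CO and 1.43, 1.02 and 0.903% in MCT2 KO. The spread of *Egr4* within MCT2 CO was thus small on this scale, and replicate 3 no longer stood apart. *Egr3* was at 3.60, 3.02 and 4.38% of *Egr1* in MCT2 CO and at 2.48, 2.26 and 1.92% in MCT2 KO, again without overlap. *Egr2* was at 4.17, 3.70 and 4.51% in MCT2 CO and at 3.64, 2.93 and 3.45% in MCT2 KO, where the lowest MCT2 CO and the highest MCT2 KO value nearly met.

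*Nab2* was at 4.86, 4.54 and 3.75% of *Egr1* in MCT2 CO and at 3.83, 3.79 and 4.65% in MCT2 KO, so the groups overlapped once the level was taken relative to *Egr1*. *Egr1* made up 89.7 to 91.6% of the summed level of the 4 Egr genes per kb in MCT2 CO and 93.0 to 94.2% in MCT2 KO. The ratio of *Nab2* to *Nab1* per kb was 0.959, 1.05 and 1.17 in MCT2 CO and 0.738, 0.903 and 0.913 in MCT2 KO, which did not overlap. The summed Egr level was 11.1 to 16.0 times the summed Nab level in MCT2 CO and 10.9 to 13.3 times in MCT2 KO, which did overlap.

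**Figure D4:**
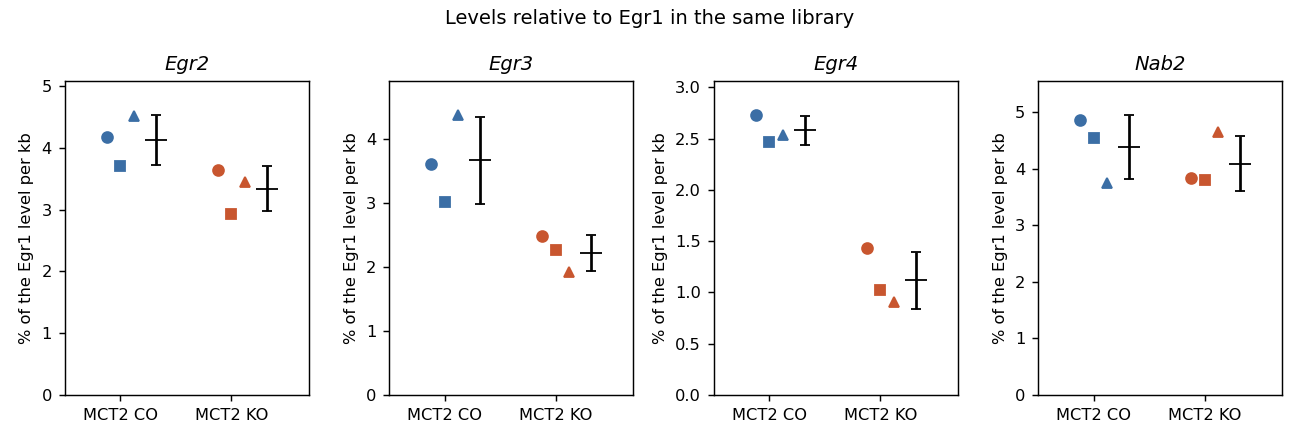
Level per kb of exon of *Egr2*, *Egr3*, *Egr4* and *Nab2* as a percentage of that of *Egr1* in the same sample, with one point per sample (circle, square and triangle are replicates 1 to 3) and the mean ± SD of 3 samples. *Egr4* lies between 2.47 and 2.73% in MCT2 CO and between 0.903 and 1.43% in MCT2 KO, whereas *Nab2* overlaps.

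The way the 6 genes varied from sample to sample was described by Pearson's r of log2 CPM over the 6 samples, which fall into the same 2 groups for every gene and share their scaling. *Egr2* and *Egr3* varied most alike within the family by either measure (r = 0.955, and 0.878 after the group means were taken out). The values for *Egr3* and *Egr4* were 0.925 and 0.774, and those for *Egr1* and *Egr3* were 0.826 and 0.830, so the next pair in order depended on whether the group means were taken out. *Egr1* and *Nab1* tended to vary in opposite directions (r = -0.935). *Egr4* and *Nab2*, although both lower in MCT2 KO, had r = 0.698, and -0.66 after the group means were taken out.

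Among all genes tested, those most like a member by this measure were *Bcar1*, *Tslp* and *Pbp2* for *Egr1* (r = 0.994, 0.993 and 0.993), *Cacna1c*, *Pip5k1b* and *Mfsd14a* for *Egr2* (0.995, 0.994 and 0.991), and *Pygm*, *Ccdc85b* and *Rev3l* for *Egr3* (0.997, 0.993 and 0.991). They were *Marchf4*, *Or10aa3* and *Pusl1* for *Egr4* (0.994, 0.994 and 0.992), *Klhl11*, *Rnf146* and *Ptpmt1* for *Nab1* (0.995, 0.992 and 0.988), and *Cfap157*, *Map1b* and *Zfp605* for *Nab2* (0.993, 0.987 and 0.984). No other member was among these genes. With 6 samples many genes reach such values, and between 37 and 77 genes ranked the samples in exactly the same order as a given member.

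Genes of the pathway that switches on the Egr genes had small log2 fold changes, between -0.15 and 0.21. These are transcript levels, and the activity of the pathway was not measured. Of 25 genes tested for SRF, its cofactors, CREB and the Ras-ERK cascade, 9 were lower and 16 higher in MCT2 KO, with a median log2 fold change of 0.02. In edgeR 0 of them were called and 0 had an unadjusted p under 0.05, and DESeq2 called 0. One gene (4.0%), the kinase *Araf*, had every MCT2 KO sample above every MCT2 CO sample, beside 7.07% of all genes tested. *Srf*, whose product binds the CArG box, was at 72.1 ± 7.28 CPM in MCT2 CO against 65.0 ± 3.11 CPM in MCT2 KO (log2 fold change -0.15, SE 0.096). The ERK1 gene *Mapk3* was at 161 ± 5.39 and 187 ± 18.5 CPM (0.21, SE 0.094). The Ras activator *Sos1* had a log2 fold change of -0.15 (SE 0.11), with 47.6% of its exon bases inside other genes, and the adaptor *Grb2* one of 0.16.

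Genes described as Egr targets were mostly near 0. Of 23 tested, 16 were lower and 7 higher, the median log2 fold change was -0.082, and 3 genes, *Socs1*, *Gadd45a* and *Id3*, had every MCT2 KO sample below every MCT2 CO sample. In edgeR 0 were called, 3 had an unadjusted p under 0.05, and DESeq2 called 1, *Id3*. *Id3*, a dominant negative helix-loop-helix factor that Egr proteins induce in lymphocytes, was at 121 ± 45.2 CPM in MCT2 CO against 55.6 ± 11.6 CPM in MCT2 KO (log2 fold change -1.12, SE 0.26). *Socs1*, an inhibitor of cytokine signaling, was at 6.89 ± 0.708 and 3.66 ± 1.21 CPM (-0.92, SE 0.26). The genes with the smallest p in the other direction were *Mmp14*, a membrane-bound matrix protease (0.25), and *Icam1*, an adhesion molecule (0.13). The 13 NuRD genes, whose products the Nab proteins bring to DNA, had 6 lower and 7 higher and lay between -0.054 for *Mbd3* and 0.12 for *Mbd2*. In NuRD 0 genes were called by edgeR or DESeq2 and 0 had an unadjusted p under 0.05.

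Other immediate early genes were lower together with *Egr2*, *Egr3* and *Egr4*, but not uniformly. Of 30 tested, 25 were lower and 5 higher in MCT2 KO with a median log2 fold change of -0.31, against -0.40 for the Egr and Nab genes. In edgeR 0 were called and 7 had an unadjusted p under 0.05, all of them lower, beside 5.60% of all genes tested. DESeq2 called 1, beside 0.352% of genes called lower. That gene, *Ier5l*, was at 9.66 ± 1.66 CPM in MCT2 CO against 3.95 ± 0.691 CPM in MCT2 KO (log2 fold change -1.29, SE 0.19). In *Ier5l*, *Fosl1*, *Junb*, *Ier2*, *Ier5* and *Maff* (20.0%) every MCT2 KO sample lay below every MCT2 CO sample, beside 8.77% of all genes tested. The gene lists were chosen with earlier results of these data known, so nothing is read from their counts against these shares. *Fosl1*, an AP-1 subunit, had a log2 fold change of -0.42 (SE 0.10), with 57.2% of its exon bases inside other genes. The ERK phosphatase genes *Dusp5* and *Dusp6* had the smallest p among those higher, at 0.099 and 0.10.

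*Fos* and *Junb* were added after their values were seen, as the AP-1 genes most often induced together with *Egr1*. *Fos* had 1383 ± 141 CPM in MCT2 CO against 1369 ± 401 CPM in MCT2 KO (log2 fold change -0.015, SE 0.21), overlapping like *Egr1*. *Junb* had 1277 ± 83.7 and 754 ± 278 CPM (-0.76, SE 0.23), without overlap, as for *Egr4*. *Csrnp1*, all of whose exon bases lie inside another gene, had 0 counts in every sample and was not tested. The summed level of the list was 17170 to 19531 CPM in MCT2 CO and 13324 to 17891 CPM in MCT2 KO.

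**Figure D5:**
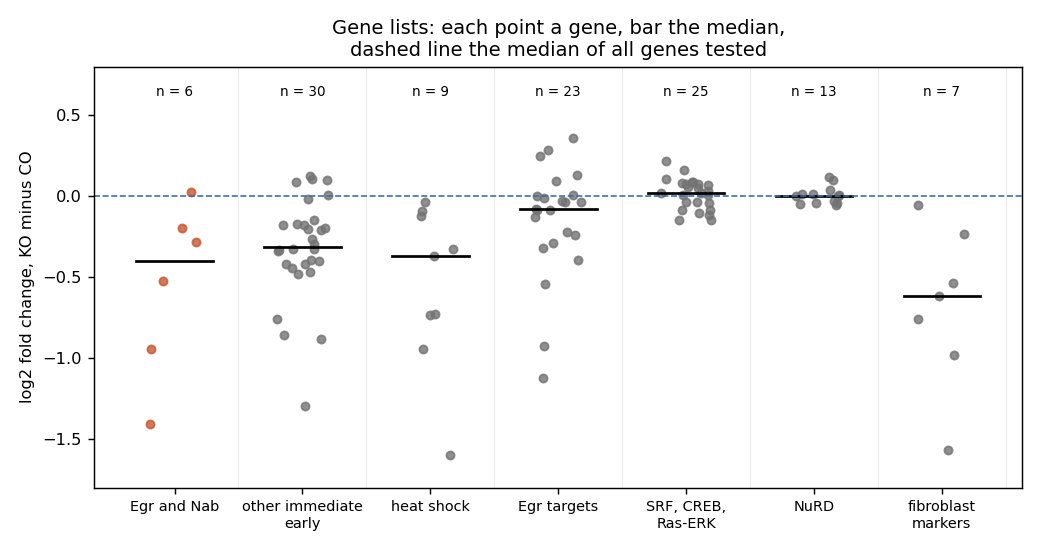
Log2 fold change of MCT2 KO against MCT2 CO for the genes of each list (one point per gene, horizontal bar the median, dashed line the median of all genes tested). The Egr and Nab genes (n = 6, median -0.40), the other immediate early genes (n = 30, -0.31), the heat shock genes (n = 9, -0.37) and the fibroblast markers (n = 7, -0.62) lie mostly below 0, whereas the SRF, CREB and Ras-ERK genes (n = 25, 0.02) lie around it. The other cell type lists are not drawn, among them B-cell (n = 6, -0.97), macrophage (n = 10, 0.21) and neutrophil markers (n = 7, 1.53).

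Several other signals moved with the Egr genes. The 9 heat shock genes were all lower in MCT2 KO (median log2 fold change -0.37). Of them *Hspa1a*, *Hspa1b*, *Dnajb1*, *Hsph1* and *Hspa8* (55.6%) lay below without overlap, beside 8.77% of all genes tested. This list too was chosen with earlier results known, so nothing is read from its counts against such shares. *Hspa1a* has 75.0% of its exon bases inside other genes. The inducible chaperone *Hspa1b* was at 21.0 ± 2.99 and 6.88 ± 2.97 CPM (-1.60, SE 0.27), and *Hsph1* at 190 ± 53.6 and 98.3 ± 17.4 CPM (-0.95, SE 0.21). In edgeR 0 heat shock genes were called and 5 had an unadjusted p under 0.05, all lower, beside 5.60% of all genes tested. DESeq2 called 2, *Hspa1b* and *Hsph1*, beside 0.352% of genes called lower. The summed level of the list was 3376 to 4258 CPM in MCT2 CO and 2875 to 3419 CPM in MCT2 KO. The part of dissociation stress in the Egr values was not tested.

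The 7 fibroblast markers were all lower in MCT2 KO, 3 of them (*Col3a1*, *Dcn* and *Lum*, 42.9%) without overlap, beside 8.77% of all genes tested. The summed level of these markers was 2045, 2239 and 3355 CPM in MCT2 CO and 1819, 1815 and 1708 CPM in MCT2 KO. MCT2 CO replicate 3, the highest sample for each Egr gene, was also the highest here. It was likewise the highest for the summed heat shock genes (4258 CPM), other immediate early genes (19531 CPM) and Egr targets (7620 CPM). In edgeR 0 fibroblast markers were called and 4 had an unadjusted p under 0.05, all lower, beside 5.60% of all genes tested. DESeq2 called 3, all lower, beside 0.352% of genes called lower. The authors state that telling TC1 cells from host mesenchymal or stromal cells for certain would need further analyses. These markers therefore need not come from fibroblasts alone. The 10 macrophage markers tested were all higher in MCT2 KO, none without overlap, with a summed level of 4879 to 6459 CPM in MCT2 CO and 5945 to 9160 CPM in MCT2 KO. CD11b itself (*Itgam*), 99.1% of whose exon bases lie inside another gene, had 1 count over all samples, so it could not serve as a check.

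Of 7 neutrophil markers tested, 6 were higher and 1 lower in MCT2 KO, with a median log2 fold change of 1.53. Among them 5 (*S100a8*, *S100a9*, *Retnlg*, *Mmp8* and *Ngp*, 71.4%) lay above without overlap, beside 7.07% of all genes tested. In edgeR 0 were called and those 5 had an unadjusted p under 0.05, all of them higher, beside 3.77% of all genes tested. DESeq2 called the same 5, beside 0.584% of genes called in either direction. The granule gene *Ngp* had the highest log2 fold change of all genes tested (4.82, SE 1.02), at 0.234 ± 0.127 CPM in MCT2 CO against 6.68 ± 7.53 CPM in MCT2 KO. The summed level of the list was 82.6 to 103 CPM in MCT2 CO and 67.4 to 176 CPM in MCT2 KO, most of it from *Csf3r* (86.1 ± 13.1 and 92.9 ± 44.9 CPM), whose groups overlapped, and the defining marker *Ly6g* was at or near 0. Of 7 NK-cell markers, 4 were lower and 3 higher, and *Ncr1*, *Klrb1c* and *Gzma* lay below without overlap. In edgeR 0 were called and 2 had an unadjusted p under 0.05, *Gzma* lower and *Prf1* higher, and DESeq2 called 1, *Gzma* (-1.09, SE 0.22). All 6 B-cell markers tested were lower, 3 of them without overlap. In edgeR 0 were called and 3 had an unadjusted p under 0.05, and DESeq2 called 2, *Cd79a* (-2.02, SE 0.45) and *Igkc* (-2.04, SE 0.55). NK-cell markers summed to 39.3 to 62.1 CPM in MCT2 CO and 45.7 to 89.5 in MCT2 KO, and B-cell markers to 79.7 to 94.3 and 23.4 to 109. T-cell markers summed to 46.9 to 72.5 and 14.7 to 101 CPM, dendritic-cell markers to 44.5 to 54.9 and 27.3 to 64.5, endothelial markers to 94.7 to 100.1 and 82.8 to 139, and epithelial markers to 13.9 to 20.9 and 18.5 to 33.5, with *Krt8*, *Krt18* and *Krt19* at or near 0. In these last 4 lists 0 genes were called by edgeR or DESeq2, and at an unadjusted p under 0.05 there was 1, a dendritic-cell marker. The part of any of these cell types in the Egr and Nab values was not tested, and low keratin levels do not show that TC1 cells were absent.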

How the data were processed

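Stranded poly-A libraries of CD11b+ tumor cells, 3 per group, were sequenced on an Illumina HiSeq. Per the labels and the methods, the authors checked reads with FastQC (0.12.0) and MultiQC (1.28), used STAR (2.7.11b) for alignment to GRCm38, counted them per gene with featureCounts (2.1.1) and used DESeq2 (1.18.1), and they deposited raw counts per gene without normalization. The annotation and strand setting of the counting are not given in the sources used here. The lengths in the count table are whole gene spans. Of its genes, 25645 of 25701 were matched to GENCODE M21 by Ensembl identifier. Among these 98.1% had the same span length but only 2.41% the same start. The table may therefore carry positions of another build than the GRCm38 stated, which was not tested. Positions given here were taken from GENCODE M21.

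Counts were filtered with filterByExpr (minimum count 10, minimum total 15), normalized by TMM and fitted with edgeR 4.0.16 under R 4.3.3 (quasi-likelihood test, Benjamini-Hochberg adjustment over 13485 genes, no covariates), and log2 CPM for correlations used a prior count of 2. SEs were derived from the fold change and its F statistic. A call required an adjusted p of 0.05 or less with a log2 fold change of 0.58 or more either way. The fit was checked on simulated counts. No 2 samples of the same group were close enough to be a library deposited again. The labels do not say that replicates are separate mice, so p-values measure only the spread between these samples, which may be technical. The alternatives were DESeq2 1.42.0 on the same and on all genes with a count, limma-voom (3.58.1), other size factors and filters, a replicate block and each sample left out.

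The members and gene lists were chosen with earlier results of these data known. The rule for naming genes took the 6 members, *Slc16a7*, the genes overlapping a member, the called genes and up to 2 genes of smallest p per direction in each list, and the 3 genes most like each member. Genes named beyond it were chosen after their values were seen: list members whose groups did not overlap, *Fos*, *Junb*, *Csrnp1* and the cell type markers named. Promoter windows came from a RefSeq table of GRCm38.p6, and those of *Egr1* and *Egr3* were not analysed here.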

Additional observations from a re-analysis of the deposited data

How the results depend on the processing

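*Egr1*, *Egr2*, *Egr3*, *Egr4* and *Nab2* had a negative log2 fold change in 15 of 15 fits, and *Nab1* in 1 of 15, at -0.028 without MCT2 CO replicate 3. With one sample left out the ranges were -0.30 to -0.062 for *Egr1*, -0.62 to -0.30 for *Egr2*, -1.09 to -0.63 for *Egr3*, -1.57 to -1.25 for *Egr4*, -0.028 to 0.066 for *Nab1* and -0.34 to -0.20 for *Nab2*. Other tools, size factors and filters moved no member by more than its SE. The number of calls depended on the tool, and the cause was not tested. edgeR called 0 genes, as did limma-voom, other size factors and looser thresholds. DESeq2 called 79 when run on the genes that edgeR tested and 83 when run on every gene with a count, in both cases with 2 members, 1 Egr target, 1 other immediate early gene and 2 heat shock genes among them. Without a filter on low counts edgeR called 2 genes, *Egr4* and *Gpnmb*, so 1 member. With one sample left out edgeR called 0 to 2 genes, 0 to 1 of them heat shock genes, the highest without MCT2 KO replicate 2 (*Hspa1b* and *Lipg*). The replicate block called 0 genes and gave -0.50 for *Egr2* and -0.90 for *Egr3*. The numbers in the labels gave no clear sign of pairing, since same-numbered samples had correlations of their deviations of 0.216, -0.247 and -0.161. With 3 samples per group these values cannot exclude a pairing. The order of levels per length depended on the length used. The lowest count of a member in any sample was 350 (*Egr4*), so counting error was small beside the spread between samples.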
